A study of Rattus norvegicus with 12 samples.

Results

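Angpt2, Cd93, Egfl7 and Itm2a are 4 genes of the vessel wall, taken from the 9218 named genes measured in rat striatum. They were chosen by their measured differences between the dyskinetic and the control arrays, so these differences are a description and carry no test. Each gene had 1 probe on the array. The study compared 6 striatal samples from parkinsonian rats given chronic levodopa that had become dyskinetic, here called LID, with 6 from parkinsonian rats not given levodopa, here called PD control. Levodopa was dosed as L-DOPA methyl ester (25 mg/kg) together with benserazide (6.25 mg/kg), which blocks peripheral decarboxylation. All 12 samples came from the parkinsonian model, and tissue RNA of all of them dates from day 8. Levodopa, benserazide and dyskinesia cannot be told apart, since every treated rat is labelled dyskinetic. The labels do not say whether each sample is a separate animal, so p-values measure the spread between samples.

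Brain capillaries are lined by endothelial cells joined by tight junctions, which form the blood-brain barrier. Angpt2 encodes angiopoietin-2, a secreted ligand of the receptor Tie2 that loosens contacts between endothelium and pericytes when vessels remodel. Cd93 encodes a C-type lectin-like receptor of endothelium, also found on myeloid cells, that binds the matrix protein multimerin-2 and promotes endothelial migration. Egfl7 encodes a matrix protein with epidermal growth factor-like domains that is secreted by endothelium and can bind Notch receptors. Itm2a encodes a transmembrane protein with a BRICHOS domain that is enriched in brain endothelium. Endothelial proliferation in the striatum has been described in rat models of levodopa-induced dyskinesia.

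Egfl7 also holds microRNA sequences, which are shown because they lie inside 1 of the 4 genes. In RefSeq's GRCr8 annotation both arms of rno-miR-126a lie within Egfl7 on chromosome 3, on the plus strand, the strand of the gene. Capitals mark the seed, bases 2 to 8.
rno-miR-126a-3p, chr3:29813219-29813240: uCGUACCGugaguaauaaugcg
rno-miR-126a-5p, chr3:29813182-29813202: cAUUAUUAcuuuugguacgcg
The mature microRNAs were not measured here, so the values below concern the Egfl7 transcript alone.

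Promoter windows from RefSeq (GRCr8), 250 bases before to 50 after an annotated start, matched 2 of the 4 genes. They are shown because Egfl7 was higher and Itm2a lower in LID. Capitals mark any match, on either strand, to 1 of 6 kinds of motif. The first is GGAA, the core bound by ETS factors, which are active in endothelium. AP-1 factors bind the form TGANTCA. The cyclic AMP response element reads TGACGTCA. The hypoxia response core was searched as ACGTG and also, with the other first base, as GCGTG. The last kinds were the TATA box, as TATAAA, and the GC box, as GGGCGG.
Egfl7, first start, plus strand, chr3:29805381-29805680: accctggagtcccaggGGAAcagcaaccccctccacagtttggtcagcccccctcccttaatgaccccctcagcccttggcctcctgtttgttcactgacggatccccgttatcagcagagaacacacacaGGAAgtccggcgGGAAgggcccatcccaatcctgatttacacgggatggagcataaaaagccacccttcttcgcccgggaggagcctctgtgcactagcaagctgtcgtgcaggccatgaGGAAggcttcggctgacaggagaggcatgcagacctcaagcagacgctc
Egfl7, second start, plus strand, chr3:29808051-29808350: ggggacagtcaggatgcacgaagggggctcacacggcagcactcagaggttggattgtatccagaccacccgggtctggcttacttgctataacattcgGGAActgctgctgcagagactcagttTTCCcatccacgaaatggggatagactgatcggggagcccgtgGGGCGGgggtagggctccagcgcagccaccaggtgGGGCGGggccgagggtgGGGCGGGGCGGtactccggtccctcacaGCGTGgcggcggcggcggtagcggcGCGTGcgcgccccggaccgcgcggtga
Itm2a, minus strand, chrX:76565095-76565394: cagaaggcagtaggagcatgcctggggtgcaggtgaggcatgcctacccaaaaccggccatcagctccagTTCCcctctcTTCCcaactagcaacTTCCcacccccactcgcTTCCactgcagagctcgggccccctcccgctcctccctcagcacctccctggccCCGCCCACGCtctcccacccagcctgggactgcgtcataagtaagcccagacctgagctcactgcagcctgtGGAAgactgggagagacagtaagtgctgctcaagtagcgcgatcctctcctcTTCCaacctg
GGAA occurred 4 times in the first Egfl7 window, 2 times in the second and 6 times in that of Itm2a, against a mean of 3.55 in all 33469 windows of the table, of which 95.8% held it. GGGCGG occurred 4 times in the second Egfl7 window, where 2 matches overlap by 1 base, and 1 time in that of Itm2a, where it overlaps a GCGTG match by 1 base. It was present in 33.1% of all windows. GCGTG occurred 2 times in the second Egfl7 window and 1 time in that of Itm2a, and 41.6% of all windows held one or other form of the hypoxia core. The AP-1 form (in 7.33% of all windows), the cyclic AMP element (1.83%), ACGTG (19.3%) and the TATA box (14.2%) were not matched in these 3 windows. GC content was 59.3% in the first Egfl7 window, 67.7% in the second and 62.3% in that of Itm2a. The median over all windows was 51.7%, and the shares given do not allow for this.

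Levels are log2 values after background correction with an offset of 50, which shrinks differences of dim probes. The deposited intensities are on the linear scale. Log2 levels over the whole table started at 5.66, with a median of 7.11. A Benjamini-Hochberg adjusted p under 0.05 in limma is the threshold for a call. It was met by 12.0% of all 13375 probes, namely 6.47% with LID higher and 5.54% with LID lower. The groups did not overlap at 6.12% of probes, 3.34% with LID above and 2.77% with LID below. Because the 4 genes were chosen in this contrast, nothing is read from their standing against these shares. In bulk tissue, fewer cells of a type and less RNA per cell cannot be told apart.

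The striatal origin of the samples showed in Ppp1r1b, which encodes DARPP-32 of striatal projection neurons, at a mean log2 level of 13.13 in PD control and 13.20 in LID. The mean log2 level of 14 leptomeningeal and choroid plexus genes ran from 6.42 to 8.10 in PD control and from 6.58 to 7.78 in LID. The mean of 12 striatal projection neuron genes ran from 10.86 to 11.42 in PD control and from 11.40 to 11.71 in LID. This mean holds genes that differed between the groups: 6 of the 12 rose (50%, against 13.5% of all 9218 genes). Among them, chosen after their values were seen, were the neuropeptide genes Pdyn (1.90) and Tac1 (1.25) and the dopamine receptor gene Drd1 (0.57), so the mean does not measure tissue makeup alone. PD control replicates 1, 3 and 6 had the lowest striatal means (10.86, 10.90 and 10.94). Without these 3 arrays 2 of the 12 striatal genes passed, where 8.85% of all genes did. Drd1 then did not pass (0.37, limma adjusted p = 0.051). Leaving out the arrays with the lowest striatal mean lowers the differences of this list in advance. Values given here and below without these 3 arrays rest on 3 PD control arrays picked by that mean.

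Angpt2, the Tie2 ligand, was higher on every LID array. Deposited intensities in PD control were 55.5, 54.6, 52.4, 54.0, 49.4 and 53.8 in replicates 1 to 6. In LID they were 76.2, 78.3, 82.5, 80.2, 82.6 and 79.1. The groups did not overlap, and the lowest LID array stood 0.42 log2 units above the highest PD control array. The mean log2 level was 5.88 ± 0.05 (SD, n = 6) in PD control and 6.42 ± 0.04 in LID. The difference was 0.53 ± 0.04 (SE), which is 1.45-fold on the offset scale. The probe was dim, brighter on average than only 20.9% of all probes, and its difference depended on the offset: with an offset of 1 in place of 50 it was 1.89.

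Cd93, the lectin-like receptor, was also higher on every LID array. Its deposited intensities in PD control replicates 1 to 6 were 81.3, 68.7, 74.7, 66.1, 79.7 and 86.7. In LID replicates 1 to 6 they were 136.8, 139.3, 149.9, 148.7, 137.0 and 121.1. The highest PD control array was replicate 6 and the lowest LID array was replicate 6, with a gap of 0.46 log2 units between them. The mean log2 level was 6.35 ± 0.14 (SD, n = 6) in PD control and 7.17 ± 0.11 in LID. The difference was 0.82 ± 0.07 (SE), 1.77-fold on the offset scale, and 1.57 with an offset of 1.

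Egfl7, the secreted matrix protein gene, was higher on every LID array, with a wide spread in LID. Deposited intensities in PD control replicates 1 to 6 were 84.0, 95.1, 101.2, 97.6, 107.9 and 102.4. In LID they were 143.8, 129.8, 229.0, 305.0, 202.2 and 189.0. LID replicates 1 and 2 lay nearest to PD control and replicate 4 farthest from it, and the gap between the groups was 0.25 log2 units. The mean log2 level was 6.69 ± 0.12 (SD, n = 6) in PD control and 7.63 ± 0.44 in LID. The difference was 0.94 ± 0.16 (SE), 1.91-fold. It was 0.80 without LID replicate 4, 1.04 without LID replicate 2, and 1.43 with an offset of 1.

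Itm2a, the BRICHOS protein gene, was lower on every LID array. Deposited intensities in PD control replicates 1 to 6 were 1132, 1050, 1266, 1060, 1032 and 1448. In LID they were 786.6, 982.6, 779.9, 660.3, 746.5 and 762.0. The groups did not overlap, but LID replicate 2 lay within 0.07 log2 units of the lowest PD control array, replicate 5. The mean log2 level was 10.18 ± 0.19 (SD, n = 6) in PD control and 9.62 ± 0.19 in LID. The difference was -0.56 ± 0.10 (SE), so that PD control was 1.48-fold higher. With an offset of 1 it was -0.59.

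**Figure D1:**
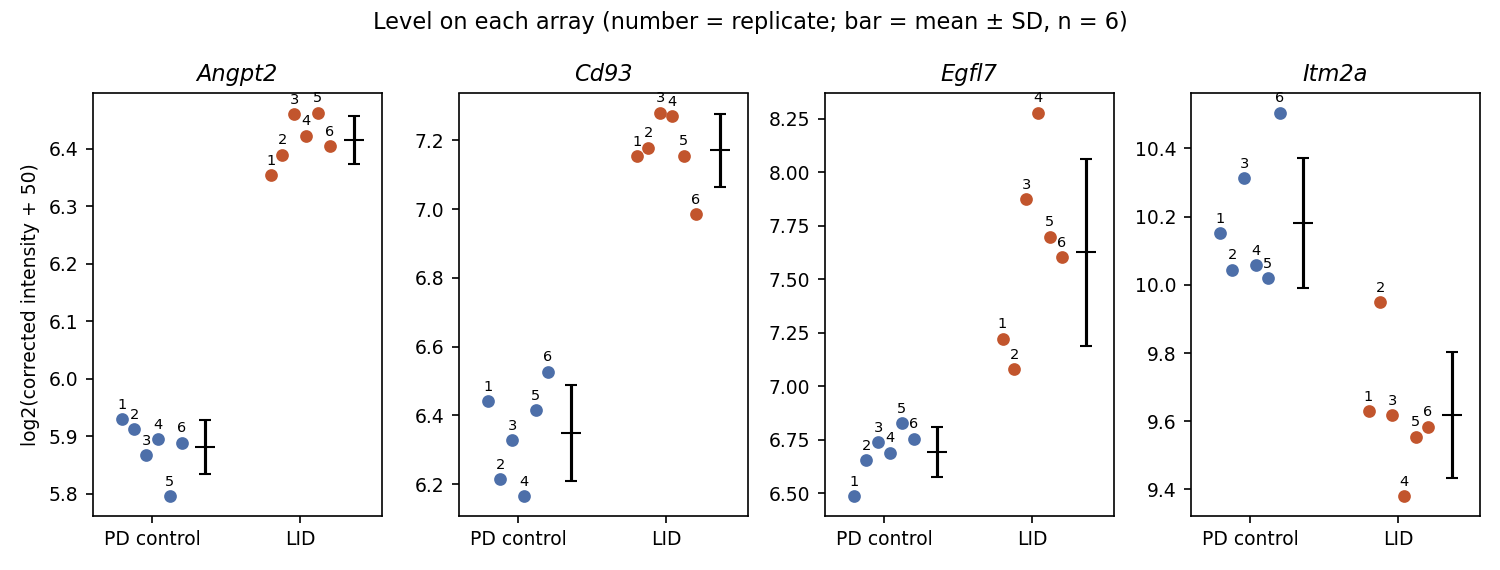
Log2 level (log2 of corrected intensity plus the offset of 50) of Angpt2, Cd93, Egfl7 and Itm2a on each of 6 PD control (blue) and 6 LID (orange) arrays; numbers are replicates and bars are the mean ± SD. The groups do not overlap for any of the 4, with gaps of 0.42, 0.46, 0.25 and 0.07, and each panel has its own axis, which does not start at 0.

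Within the groups the 4 genes varied to different degrees. Egfl7 had an SD 3.72 times as large in LID as in PD control. Among the 500 probes nearest to it in level, 96.6% had a smaller SD in LID, against 44.2% in PD control. The spread of Cd93 was ordinary for its level, with 56.8% of its 500 nearest probes having a smaller within-group SD. Angpt2 had a small spread, with only 3.2% of its nearest probes below it. Itm2a was on the variable side (84.0%).

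**Figure D2:**
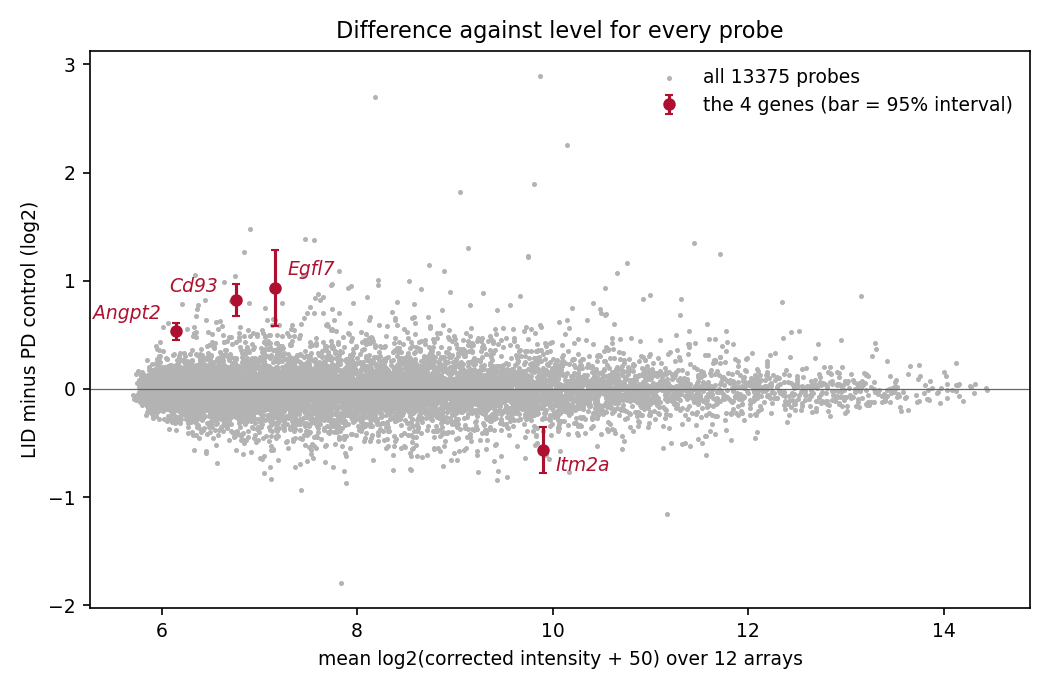
Difference between LID and PD control in log2 units against the mean log2 level over the 12 arrays, for all 13375 probes (grey) and the 4 genes (red, bars are 95% intervals). Angpt2 (0.53), Cd93 (0.82) and Egfl7 (0.94) lie above 0 in the dim to middle part of the range, and Itm2a (-0.56) lies below 0 at a bright level.

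Relations among the 4 genes and with the mean of 22 brain endothelial markers were examined inside each group of 6 arrays, which the choice of the genes did not use. Of 20 relations, 0 passed after Benjamini-Hochberg adjustment (exact two-sided permutation tests, smallest adjusted p = 0.389 for Pearson and 0.333 for Spearman). With 6 arrays the smallest possible exact permutation p is 0.00278 for rho, which adjusts to 0.0556 over 20 relations, so a single rank relation could not pass. For r the smallest possible exact permutation p is 0.00139. Unadjusted, 1 Pearson and 2 Spearman relations had an exact permutation p under 0.05. In LID, Egfl7 and Itm2a ran in opposite directions (r = -0.853, exact permutation p = 0.0319, adjusted 0.389; rho = -0.829, exact permutation p = 0.0583, adjusted 0.389; n = 6). Without the 2 arrays farthest from the median of Egfl7, r was -0.393. Dropping the extreme arrays narrows the range, so a smaller r does not show whether the relation rests on them.

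In PD control, Angpt2 and Egfl7 had r = -0.835 (exact permutation p = 0.0597, adjusted 0.389) and rho = -0.943 (exact permutation p = 0.0167, adjusted 0.333). In LID the same pair had r = 0.636 (exact permutation p = 0.169, adjusted 0.653) and rho = 0.714 (exact permutation p = 0.136, adjusted 0.454). Without the 2 farthest arrays these r were -0.798 and 0.630. The endothelial mean and Egfl7 in PD control had r = 0.494 (exact permutation p = 0.279, adjusted 0.653) and rho = 0.886 (exact permutation p = 0.0333, adjusted 0.333). Without the 2 farthest arrays r was 0.834. At 6 arrays a group, no common rise and fall of the 4 genes was detectable.

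Of 32 genes on a list of brain endothelial markers, which holds none of the 4, 22 had a named probe, 3 rose, 1 fell and 18 did not pass. That is 18.2% called, against 13.5% of all 9218 genes. The list's median difference was 0.07, against -0.0013 for all genes. Its mean log2 level ran from 7.04 to 7.25 in PD control and from 7.11 to 7.27 in LID, so the groups overlapped, with PD control replicate 6 the highest of its group. Without replicate 6 of PD control 7 genes passed, where 11.6% of all genes did, with a median of 0.12. Without replicates 1, 3 and 6 the median was 0.15 with 4 genes called, where 8.85% of all genes were. Both fits leave out the PD control array with the highest mean of this list. That favours a higher difference in advance, so nothing is read from the higher medians or the 7 calls.

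Slc7a5, the amino acid transporter that carries levodopa across the blood-brain barrier, rose by 0.43 ± 0.09 (limma adjusted p = 0.0074). Its log2 levels ran from 7.39 to 7.84 in PD control and from 7.75 to 8.15 in LID, so the ranges overlapped. Mfsd2a, a lipid transporter of barrier endothelium, rose by 0.39 ± 0.09 (adjusted p = 0.011). Esam, an adhesion protein of endothelial junctions, rose by 0.36 ± 0.08 (adjusted p = 0.012). These 3 calls held in every alternative setting run for them, and with an offset of 1 the difference of Esam was 0.56. Abcg2, an efflux transporter, fell by 0.65 on the log2 scale (SE 0.19, limma adjusted p = 0.038). Its call was lost with the replicate block and in 11 of 21 other alternative settings. With an offset of 1 the difference was -1.10 (adjusted p = 0.062). The call held without PD control replicate 2 or LID replicate 2 or 3, and was lost without any other array (adjusted p up to 0.086). It was also lost without PD control replicates 1, 3 and 6 (-0.59, adjusted p = 0.18). Abcg2 was lower in LID, as Itm2a was, while 17 of the 22 endothelial markers lay above 0. Unlike Itm2a, Abcg2 overlapped between groups (6.71 to 7.64 in PD control and 6.27 to 7.19 in LID).

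The identity markers Cldn5 and Vwf did not pass in the reported fit, while Esam, given above, did. Cldn5, the main claudin of the barrier, differed by 0.24 ± 0.09 (adjusted p = 0.10, or 0.29 and adjusted p = 0.037 without PD control replicate 6). Vwf, the von Willebrand factor gene, differed by 0.36 ± 0.12 (adjusted p = 0.062, or 0.42 and adjusted p = 0.041 without PD control replicate 5). With array weights both genes passed (0.28 and 0.38, limma adjusted p = 0.045 and 0.044). Vwf also passed with the stricter filter on dim probes (limma adjusted p = 0.048). Pecam1, Cdh5, Kdr and Slc2a1 had no named probe.

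**Figure D3:**
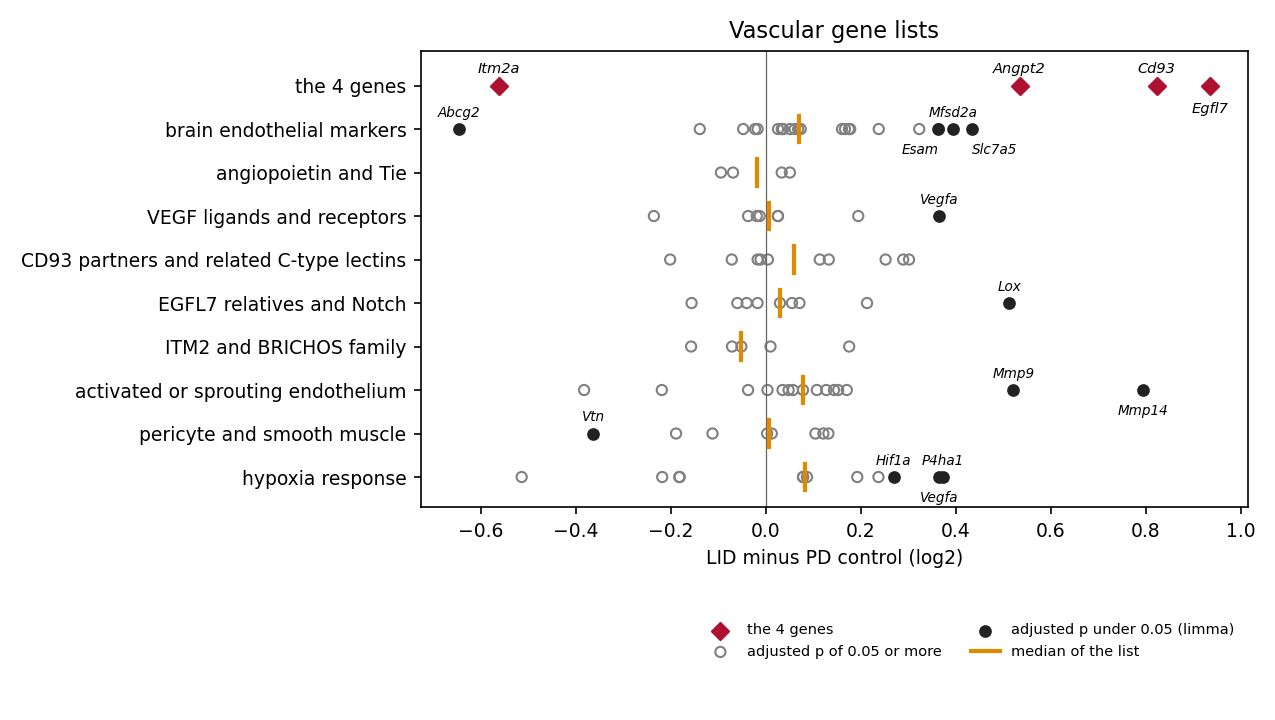
Difference between LID and PD control in log2 units for the 4 genes (diamonds) and for each measured gene of 9 vascular lists (circles, filled where the limma adjusted p is under 0.05, orange bars are list medians). The brain endothelial markers run from -0.65 (Abcg2) to 0.43 (Slc7a5) around a median of 0.07; the 4 genes were chosen by these differences, so their place beside the lists is a description.

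Of the other angiopoietin genes, Angpt1, the agonist ligand of Tie2, differed by -0.07 ± 0.06 (adjusted p = 0.56, 95% interval -0.21 to 0.07). Tek, which encodes Tie2, differed by 0.05 ± 0.06 (interval -0.08 to 0.18), with mean log2 levels of 5.98 and 6.03, near the bottom of the signal range. Tie1, the orphan co-receptor, differed by 0.03 ± 0.04. Of 4 measured genes of this family beside Angpt2, 0 passed (limma, against 13.5% of all genes), and for genes as dim as Tek a difference could be missed.

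Vegfa, the growth factor that drives sprouting, was the 1 gene of 8 measured VEGF ligands and receptors that passed (12.5%, against 13.5% of all genes). Its log2 level ran from 6.67 to 6.81 in PD control and from 6.97 to 7.22 in LID. The groups did not overlap, and the rise was 0.36 ± 0.05 (adjusted p = 0.00052), past the threshold in each setting run and 0.61 with an offset of 1. Flt1, the VEGF receptor 1 gene, differed by 0.03 ± 0.04 at a dim level (5.92 in PD control). Without PD control replicates 1, 3 and 6, Nrp1 (0.38, adjusted p = 0.031) and Vegfb (-0.36, adjusted p = 0.033) also passed, both chosen after their values were seen.

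Partners of CD93 and its relatives did not pass (0 of 10 measured by limma, against 13.5% of all genes, median 0.06). Igfbp7, a matrix ligand of CD93, differed by 0.13 ± 0.08 (adjusted p = 0.31, interval -0.03 to 0.30). The C1q chain genes C1qa, C1qb and C1qc, chosen after their values were seen, differed by 0.25, 0.30 and 0.29 and did not pass (adjusted p 0.16, 0.16 and 0.26). They differed by 0.099, 0.10 and 0.058 without PD control replicates 1, 3 and 6. Mmrn2 had no named probe. CD93 is also a myeloid protein. Of 9 measured myeloid, lymphoid and blood genes (22.2% called, against 13.5% of all genes), S100a8 rose (0.36) and Aif1 fell by 0.41 on the log2 scale, both chosen after their values were seen. S100a8 did not pass without PD control replicates 1, 3 and 6 (0.34, adjusted p = 0.0785), and both filters on dim probes left 1 called gene on this list. The mean level of this list ran from 7.268 to 7.582 in PD control and from 7.284 to 7.498 in LID, and its part in the difference of Cd93 was not tested.

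Among relatives of EGFL7 and Notch genes, 1 of 9 measured passed (11.1%, against 13.5% of all genes), and 2 did without PD control replicate 5. Lox, which encodes lysyl oxidase, an enzyme that crosslinks collagen and elastin and is inhibited by EGFL7, rose by 0.51 ± 0.07 (adjusted p = 0.0010). Its log2 level ran from 5.92 to 6.38 in PD control and from 6.44 to 6.70 in LID, with no overlap. Lox is dim, and with an offset of 1 the difference was 1.41. Notch1 (-0.06 ± 0.06, interval -0.19 to 0.07) and Notch4, the endothelial Notch receptor (-0.02 ± 0.06, interval -0.14 to 0.10), did not pass.

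Itm2b differed by 0.01 ± 0.05 (interval -0.10 to 0.12), and Itm2c, a member abundant in brain, by -0.16 ± 0.06 (adjusted p = 0.099). Itm2c passed without LID replicate 6 (-0.19, limma adjusted p = 0.0495) and with array weights (-0.18, limma adjusted p = 0.048). Of 5 measured BRICHOS genes other than Itm2a, 0 passed by limma in the reported fit. All genes passed at 13.5%, a share at which so few genes may give no call.

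Of 15 measured genes of activated or sprouting endothelium, 2 rose and none fell (13.3%, against 13.5% of all genes, median 0.08). Mmp14, a membrane-bound metalloproteinase, rose by 0.79 ± 0.14 (adjusted p = 0.0032) and Mmp9, a secreted gelatinase, by 0.52 ± 0.12 (adjusted p = 0.014). With an offset of 1 they were 1.22 and 0.86. Mmp9 did not pass without PD control replicates 1, 3 and 6 (0.51, adjusted p = 0.081). Of 8 pericyte and smooth muscle genes only Vtn, the vitronectin gene expressed by pericytes, passed, and it fell by 0.36 on the log2 scale (SE 0.08, adjusted p = 0.010). That is 12.5% of the list, against 13.5% of all genes, and 2 passed without PD control replicate 2.

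Of 12 measured hypoxia response genes 3 rose and none fell (25%, against 13.5% of all genes, median 0.08). Beside Vegfa, P4ha1, a subunit of collagen prolyl hydroxylase, rose by 0.37 ± 0.06 (adjusted p = 0.0018). Hif1a, the oxygen-regulated transcription factor gene, rose by 0.27 ± 0.07 (adjusted p = 0.024). Its call was lost without LID replicate 3, 4 or 5 (differences near 0.25, adjusted p 0.058 to 0.059) and without PD control replicates 1, 3 and 6 (0.16, adjusted p = 0.22). Of the 12 genes 8 lay above 0. Below 0, and not past the threshold, were Bnip3 (-0.51), Ddit4 (-0.22), Ndrg1 (-0.18) and Pdk1 (-0.18), chosen after their values were seen. The list median was -0.05 with the stricter filter on dim probes and 0.27 with an offset of 1.

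PD control replicates 3 and 6 had the highest levels of Itm2a (10.31 and 10.50). They also had the highest mean of the 9 cortical excitatory genes (7.65 and 7.53), while that mean was 6.62 to 7.22 in PD control replicates 1, 2, 4 and 5 and 6.66 to 7.17 in LID. LID replicate 4 had the lowest Itm2a level of all arrays (9.38) and the highest cortical mean of its group (7.17). Of the 9 genes 22.2% were called, against 13.5% of all genes. Emx2 rose (0.43) and Etv1 fell by 0.24 on the log2 scale, both chosen after their values were seen. The cortical mean thus does not measure tissue makeup alone, and Slc17a6 had the widest spread in it (SD 1.56 in PD control). Without PD control replicates 1, 3 and 6 the difference of Itm2a was -0.42, while those of Angpt2, Cd93 and Egfl7 were 0.55, 0.91 and 0.90. The part of tissue makeup in these differences was not tested.

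**Figure D4:**
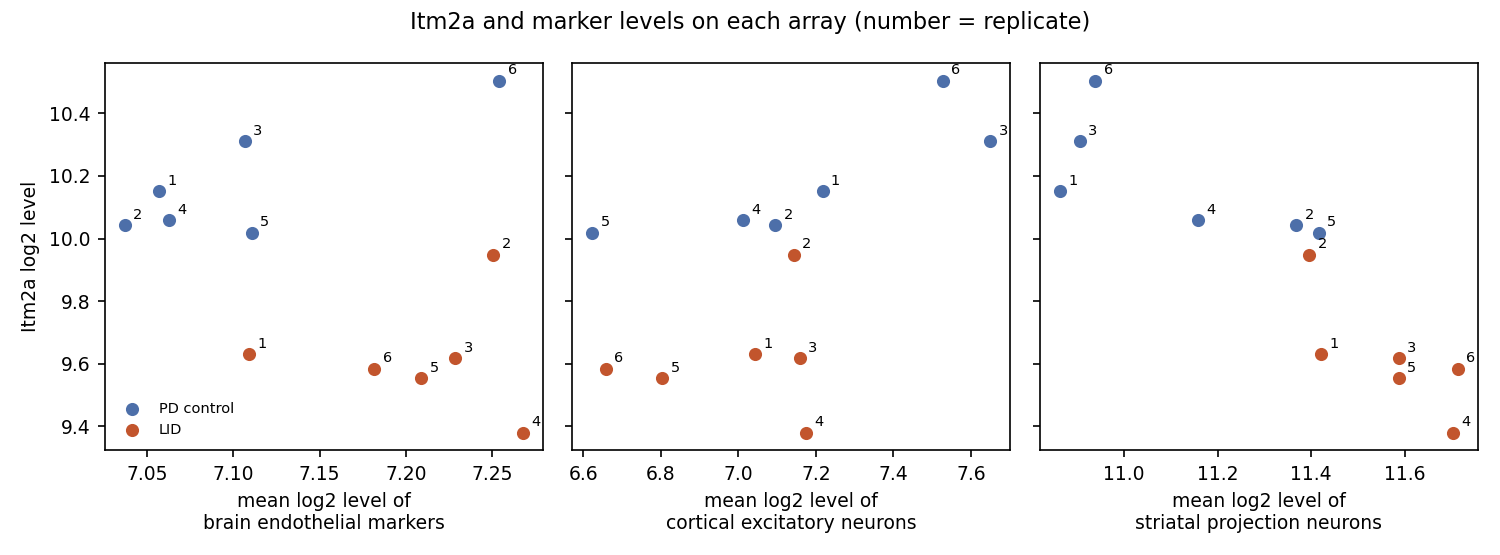
Log2 level of Itm2a on each array against the mean log2 level of brain endothelial markers, cortical excitatory neuron genes and striatal projection neuron genes (numbers are replicates, PD control blue, LID orange). PD control replicates 3 and 6 stand at the upper end of the cortical mean (7.65 and 7.53), LID replicate 4 has the lowest Itm2a level at a cortical mean of 7.17, and the striatal mean holds 6 genes that rose in LID.

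Genes whose deviations from the group means ran closest to those of each of the 4 were found over the 12 arrays among 9217 other genes, as a description with no test. The highest of so many correlations are large by selection. For Egfl7 they were Cdyl2, a chromodomain gene (r = 0.938), Slit3, a guidance ligand gene (0.936), and Ptpn7, a phosphatase gene (0.922). Cdyl2 (0.71 ± 0.13, adjusted p = 0.0033) and Slit3 (0.50 ± 0.11, adjusted p = 0.0086) rose, and Ptpn7 (0.34 ± 0.11, adjusted p = 0.067) did not pass with all arrays. Ptpn7 passed without LID replicate 2 (0.40, adjusted p = 0.030) or PD control replicate 5 (0.39, adjusted p = 0.044). For Itm2a they were Fn3k, the fructosamine-3-kinase gene (0.933), Cfap157 (0.923) and Casc3 (0.921). Of these Fn3k fell by 0.84 on the log2 scale (SE 0.10, adjusted p = 0.00029). Cfap157 and Casc3 were dim, with mean log2 levels of 5.96 and 6.15.

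For Cd93 the closest genes were Usp18, an interferon-induced protease gene (0.928), Slc31a2, a copper transporter gene (0.922), and RT1-N3, a class I histocompatibility gene (0.904). These genes were dim, with mean log2 levels of 5.90, 6.28 and 6.01, where levels over the whole table started at 5.66. RT1-N3 rose by 0.16 ± 0.05 (limma adjusted p = 0.041). Its call was lost with the replicate block and in 11 of 20 other settings. These 11 included each fit without 1 array except those without replicate 6 of either group (adjusted p up to 0.0955). With an offset of 1 the difference of RT1-N3 was 0.75. For Angpt2 the closest were Cyp51, of cholesterol synthesis (0.882), Slc2a3, a glucose transporter gene (0.840), and Gli4 (0.826). None of these 3 passed by limma (adjusted p 0.25, 0.49 and 0.11), and Gli4 was dim (mean log2 level 6.03). No gene was among the closest 3 of more than 1 of the 4.

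The measured genes nearest to the 4 on the chromosome were examined, taken by position alone. Up to 2 neighbours were taken on each side in the order of the GRCr8 assembly. Some were far off, such as Cln8, 3611 kb from Angpt2, and Sh3bgrl1, 1678 kb from Itm2a, while Dipk1b lay 38 kb from Egfl7. Of 15 neighbours 1 passed and 14 did not, where 13.5% of all genes passed. The neighbours of Egfl7 were Agpat2, which overlaps it (0.01 ± 0.05), Notch1 and Dipk1b (-0.11 ± 0.05), and none passed by limma. Those of Cd93 were Sstr4 (0.12 ± 0.09), Crnkl1, Nxt1 and Gzf1, with none past the threshold. Those of Angpt2 were Agpat5 (0.14 ± 0.07), Xkr5, Csmd1 and Cln8, and none passed by limma with all arrays, while Agpat5 passed without LID replicate 2 (0.20, adjusted p = 0.047). Pou3f4, 3410 kb from Itm2a on the X chromosome, rose by 0.20 ± 0.06 (limma adjusted p = 0.048). Its call was lost with the replicate block and in 15 of 21 other settings. These 15 included each fit without 1 array except those without LID replicate 1 or PD control replicate 2 or 4 (adjusted p up to 0.10). Without PD control replicates 1, 3 and 6 the difference of Pou3f4 was 0.095 (adjusted p = 0.40), and with an offset of 1 it was 0.37 (adjusted p = 0.060). Lpar4, Taf9b and Sh3bgrl1 did not pass.

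**Figure D5:**
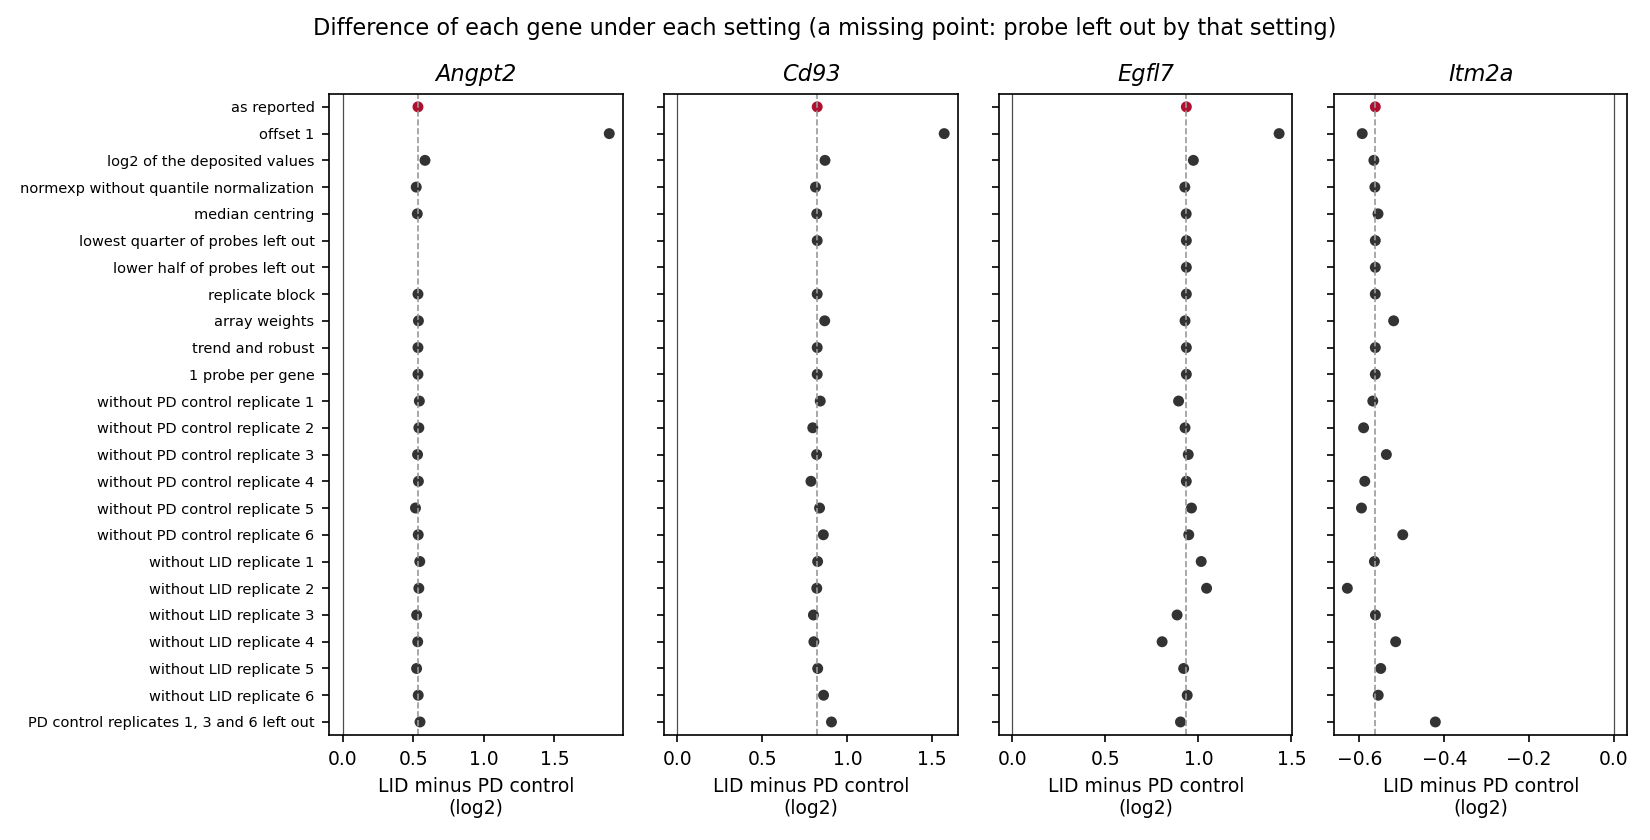
Difference between LID and PD control in log2 units for each of the 4 genes as reported (red, dashed line) and under each alternative setting (black); a missing point means that the setting left the probe out. The direction was the same in every setting that kept the probe. The groups do not overlap, so leaving out arrays could hardly turn it, and nothing is read from this. The offset of 1 gave the largest differences for Angpt2 (1.89), Cd93 (1.57) and Egfl7 (1.43).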

How the data were processed

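Total RNA of 12 striatal samples was labelled with biotin and hybridised to 1-colour Illumina arrays, 1 per sample, per the labels. The authors deposited intensities on a linear scale, from 36.5 to 22793, for 13375 probes. The upper quartile was 425.689 on every array, as quantile normalization gives. The authors' background correction, probe filter and software are unknown here. The intensities were corrected for background by normexp with an offset of 50 and quantile normalized before log2, all with limma 3.58.1 (R 4.3.3). Each probe was tested for group (lmFit, eBayes, two-sided, Benjamini-Hochberg over all 13375 probes, threshold 0.05). The number of arrays limits the precision.

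GEO's platform annotation named 9434 probes. Where a gene had several probes, the one of highest mean level stood for it. The 4 genes, the 13 lists and the settings were chosen with earlier results of these data known. The text names the 4 genes, up to 4 called genes of each of 9 vascular lists, 18 fixed genes, of which 5 had no named probe, and the 3 genes closest to each of the 4. Other genes are said to be taken by position or after their values were seen.

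The fit was tested on simulated data. Correlations were computed with numpy 2.4.6. All 12 arrays entered the fit, and 0 pairs were identical. Alternatives changed the offset, the scaling, the filter on dim probes, array weights, the variance model, the replicate block and the arrays used.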

Additional observations from a re-analysis of the deposited data

Results flagged for a closer look

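In 53 genes, 106 groups of 6 arrays were searched for 1 array far from the others, with Dixon's ratio (the gap to the nearest array over the range of the group, at the 95% level). Chance flags about 5% of groups, and 6 were found, none in Angpt2, Cd93, Egfl7 or Itm2a. Mfsd2a was high in PD control replicate 1 (log2 level 8.13, nearest array 7.74, ratio 0.904). Abcg2 was low in PD control replicate 2 (6.71 against 7.32, ratio 0.66). Tek was high in PD control replicate 6 (6.25 against 6.00, ratio 0.652). P4ha1 was high in LID replicate 2 (9.42 against 9.24, ratio 0.657). Cln8 was low in LID replicate 4 (8.76 against 8.92, ratio 0.692), and Sh3bgrl1 was low in LID replicate 6 (6.93 against 7.40, ratio 0.734).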

How the results depend on the processing

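Angpt2, Cd93 and Egfl7 stayed higher and Itm2a lower in LID in every setting that kept their probes. These genes were chosen in this contrast and their groups did not overlap. Leaving out arrays could thus hardly turn a direction, and nothing is read from this. With an offset of 1 the log2 differences were 1.89, 1.57 and 1.43 for Angpt2, Cd93 and Egfl7, and the median of brain endothelial markers was 0.17. With log2 of the deposited values Angpt2 was 0.58. A milder filter on dim probes removed Angpt2, and a stricter one removed Angpt2 and Cd93. The endothelial median was then 0.16 and 0.24, with fewer genes measured. With array weights 7 endothelial markers were called in place of 4. Without PD control replicates 1, 3 and 6, 1059 probes passed in place of 1606, and the endothelial median was 0.15.

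Over the 12 fits that left out 1 array, differences ran from 0.52 to 0.55 for Angpt2, 0.79 to 0.86 for Cd93, 0.80 to 1.04 for Egfl7 and -0.63 to -0.50 for Itm2a. Called probes ran from 1112 to 1557, called endothelial markers from 3 to 7 and their median from 0.057 to 0.12. The labels' descriptions number the replicates 1 to 6 in both groups, but nothing there ties same-numbered samples: same-numbered samples' deviations correlated at -0.292 to 0.482. With the replicate block 1332 probes and 3 endothelial markers were called. Of 1091 recomputed values for 49 other genes, 1001 kept their direction and side of the threshold, 45 lost a call (5 genes) and 10 gained one (5 genes). The other 35 (11 genes) changed sign, and 0 of these were called. Without quantile normalization Cfap157 was -0.013, Nxt1 -0.00074 and Agpat2 -0.0074. With median centring Cfap157 was -0.0059 and Agpat2 -2.9e-05. With array weights Usp18 was 0.0039 and Nxt1 -0.010. Without PD control replicates 1, 3 and 6 Angpt1 was 0.013, Itm2b -0.024, Ppp1r1b -0.086, Usp18 0.032, Nxt1 -0.0062 and Gzf1 -0.017. Over the fits that left out 1 array, values ran from -0.048 to 0.015 for Notch4, -0.021 to 0.035 for Itm2b, -0.061 to 0.0013 for Usp18, -0.018 to 0.025 for Cfap157, -0.080 to 0.0092 for Cln8, -0.025 to 0.034 for Nxt1, -0.016 to 0.036 for Agpat2 and -0.10 to 0.018 for Lpar4. Dim signal limits Angpt2 and the angiopoietin receptors.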
